A study of Mus musculus with 17 samples.

Results

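The matrix proteases and their inhibitors were taken as every protein-coding mouse gene whose symbol begins with Mmp, Timp, Adamts or Adamtsl followed by a digit. These were 50 of the 35971 genes of the expression table, made up of 22 Mmp, 4 Timp, 19 Adamts and 5 Adamtsl genes. They were followed in kidney RNA of 17 libraries from 5 genotype groups, in a mouse model of renal carcinoma driven by the PRCC-TFE3 fusion. The question was how these genes differ between kidneys with and without the fusion, and whether loss of HIF1α, HIF2α or both changed them.

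All groups carried the lsl-PRCC-TFE3 KI allele, a fusion transgene behind a stop cassette that Cre recombinase removes. The Cre was KSP-Cre, driven by the Cadherin 16 promoter, which is active in kidney epithelium, so other cell types of the organ were not targeted. The 4 Cre(-) control kidneys lacked Cre, and 2 of them were labelled as carrying HIF1af/f while the other 2 had no flox allele. The KI group (3 libraries) was KSP-Cre(+) with no flox allele. The Hif1α KO group (4) added HIF1af/f, the Hif2α KO group (3) added HIF2af/f, and the DKO group (3) carried both. The labels give neither age nor sex. They also do not say that each library is a separate animal, so the p-values measure the spread between these libraries.

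Matrix metalloproteases are zinc enzymes that cleave collagens, laminins, proteoglycans and cell surface proteins. Most are secreted as inactive precursors, and a smaller class sits in the plasma membrane, where Mmp14 activates pro-Mmp2. The TIMPs are small secreted proteins that bind the active site and block it, and Timp3 stays bound to the matrix. ADAMTS enzymes are secreted proteases with thrombospondin repeats that cut proteoglycans, procollagens and von Willebrand factor, while ADAMTSL proteins share those repeats but have no protease domain and associate with fibrillin microfibrils.

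Library totals ran from 16504419 to 24668827 counts, so that 3 counts corresponded to 0.122 to 0.182 CPM, counts scaled to a common library size. Gpnmb, a gene known to be switched on by TFE3 fusions, was at 0.993 to 2.14 CPM in Cre(-) and at 13010 to 15630 CPM in KI, 3269 to 7452 CPM in Hif1α KO, 4953 to 11390 CPM in Hif2α KO and 2806 to 6415 CPM in DKO, so that every deletion library lay below every KI library. The summed TPM of 5 proximal tubule markers fell from 3265 to 3707 in Cre(-) to 122 to 187 in KI. Hif1a was at 184 to 232 CPM in KI and 163 to 198 CPM in Hif1α KO (edgeR quasi-likelihood test, adjusted p = 0.372), and Epas1, which encodes HIF2α, was at 173 to 192 CPM in KI and 136 to 149 CPM in Hif2α KO (adjusted p = 0.0788). In DKO, Hif1a was at 174 to 203 CPM (adjusted p = 0.395 against KI) and Epas1 at 156 to 165 CPM (adjusted p = 0.208). Whole-gene counts also come from cells without Cre and from the part of the gene left after deletion, so they do not check the deletions. One KI library, replicate 2, held far more adipocyte RNA than the others, with Adipoq at 127 CPM against 5.12 and 8.56 CPM in the other KI libraries.

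Of the Mmp genes, 9 lie in one cluster on chromosome 9 (GRCm38, 9:7272514-7699585), in the order Mmp13, Mmp12, Mmp1b, Mmp3, Mmp10, Mmp8, Mmp27, Mmp20 and Mmp7. In the RefSeq promoter table (GRCm38.p6, 250 bases before to 50 after each start), 35 of the 50 genes had an entry. The letters TGACTCA on either strand, which are those of an AP-1 element, were found in promoters of Mmp1b, Mmp3, Mmp7, Mmp10, Mmp12 and Mmp13, all of this cluster, and in 5.2% of all 32851 promoters. The 120 bases before the start are shown for the 4 of these genes that were expressed, 3 of which rose and 1 of which fell in KI kidneys, with the match on either strand in capitals.
Mmp13 (+ strand, chr9:7272394-7272513): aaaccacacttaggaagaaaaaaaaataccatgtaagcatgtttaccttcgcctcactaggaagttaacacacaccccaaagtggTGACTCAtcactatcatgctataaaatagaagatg
Mmp12 (+ strand, the second of its RefSeq starts, chr9:7347254-7347373): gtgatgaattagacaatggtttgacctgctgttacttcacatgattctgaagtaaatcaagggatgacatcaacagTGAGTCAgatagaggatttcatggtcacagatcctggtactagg
Mmp3 (+ strand, chr9:7445702-7445821): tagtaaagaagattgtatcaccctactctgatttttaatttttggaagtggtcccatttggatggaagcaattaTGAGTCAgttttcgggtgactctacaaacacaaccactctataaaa
Mmp7 (+ strand, the first of its RefSeq starts, chr9:7691970-7692089): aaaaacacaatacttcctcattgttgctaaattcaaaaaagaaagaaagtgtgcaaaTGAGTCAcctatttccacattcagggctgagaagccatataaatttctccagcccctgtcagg
The matches began 35 bases before the start in Mmp13, 44 in Mmp12, 46 in Mmp3 and 63 in Mmp7. The RefSeq starts of Mmp12 and Mmp7 that are not shown had no match in the 120 bases before them. TCATGTGA, an M-box that MiT family factors such as TFE3 can bind, was found among these genes in Mmp12 alone (0.986% of all promoters), and TCACGTGA in none of them (0.974% of all). The letters ACGTG, the core of a hypoxia response element, were in promoters of Adamts3, Adamts17, Adamts18, Adamts20, Mmp7, Mmp14, Mmp27 and Timp1, and in 19.6% of all. A gene was listed if any of its promoters held the letters, while the percentages count promoters, so these are unlike units. A match of letters is a description of the sequence and not a binding site.

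Mmp7, Timp1, Adamtsl5, Adamtsl4, Mmp15, Timp2 and Mmp14 were among the genes called higher in KI than in Cre(-) kidneys, as were Mmp24, Mmp27 and Mmp8 at low counts, while Timp3, the most abundant inhibitor of the control kidney, fell. Of the 50 genes, 43 passed the filter on low counts. Adamts13, Adamts19, Adamts20, Mmp10, Mmp1b, Mmp20 and Mmp21 did not, and Mmp1b had no count in any library. Adamts13 was at 0.375 to 1.58 CPM in Cre(-) and at 0 to 0.354 CPM in the libraries with Cre, with no overlap. It was lower at these few counts, but it was not tested and is left out of the counts below. In KI, 23 of the 43 were higher (53.5%, against 31.6% of all 17011 genes tested) and 9 were lower (20.9%, against 29.3% of all genes). The median log2 fold change was 0.85, beside 0.03 over all genes. On log2(TPM + 1) with limma, where the median of all genes was 0.38, the split was 25 higher (58.1%, against 52.0% of all genes) and 5 lower (11.6%, against 14.4%). On that scale the shares of members were near those of all genes, so the excess of higher calls depends on the scaling. Of the 23 higher genes, 13 changed at least 4-fold, and 6 of the 9 lower genes changed at least 2-fold. Both the 23 and the 13 include Mmp7, Timp1, Mmp24, Mmp27 and Mmp8, with 6, 27, 1, 3 and 5 counts over the Cre(-) libraries. These genes passed the filter only through libraries with Cre, so a call of lower was hardly open to them in KI or in DKO. Across all 13 libraries with Cre, 22 genes lay above every Cre(-) library (20.1% of all genes did) and 3 lay below every one (20.6% of all genes). The 22 include Mmp7, Timp1, Mmp24 and Mmp27, which could hardly have lain below. This split was made in TMM-scaled CPM and not on TPM, so it carries the same limit of scaling. In bulk tissue a change in the number of cells of a type and a change in RNA per cell cannot be told apart.

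**Figure D1:**
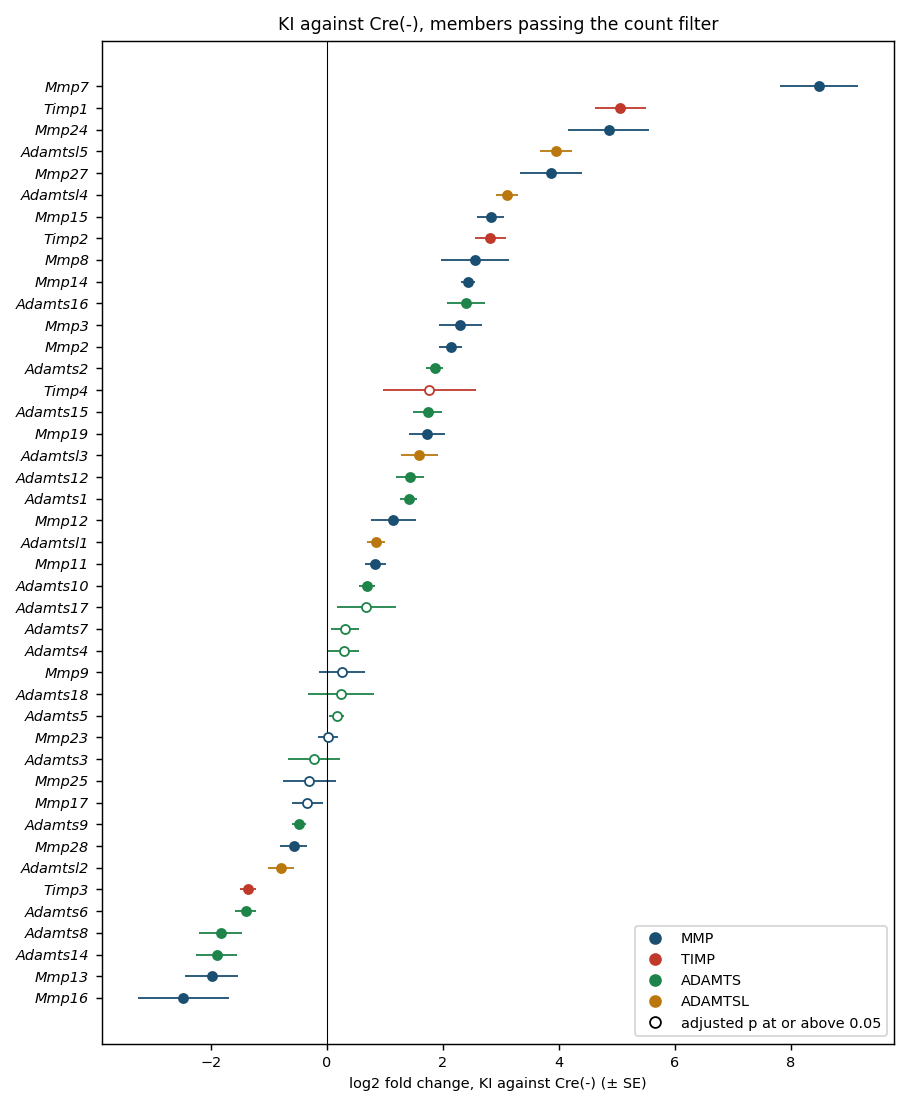
Log2 fold change of KI against Cre(-) for the 43 genes that passed the count filter (x axis, with standard error), 1 gene per line and coloured by family. Filled points have an adjusted p under 0.05, and Mmp7 at 8.48 and Mmp16 at -2.47 mark the ends of the range.

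Among the secreted metalloproteases, Mmp7 (matrilysin, an epithelial enzyme that cleaves E-cadherin and Fas ligand) changed most. Its levels in the Cre(-) libraries were 0, 0.054, 0.331 and 0 CPM, from 6 counts in all. The KI libraries had 19.0, 22.5 and 65.9 CPM, and the groups did not overlap. The fitted log2 fold change was 8.48 ± 0.68 (SE, adjusted p = 5.91e-08), and the ratio of summed counts was 381 (95% exact counting interval 175 to 1039). Per length, Mmp7 made up 20.9% to 45.8% of the summed Mmp TPM in KI and at most 1.4% in Cre(-). Replicate 3 stood well above the other KI libraries, and all of them were far above Cre(-).

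Mmp2 (gelatinase A, which degrades denatured collagen and type IV collagen) was at 5.42, 3.21, 3.71 and 4.80 CPM in Cre(-) and at 17.6, 15.2 and 23.3 CPM in KI (log2 fold change 2.13 ± 0.20, adjusted p = 2.91e-07). Mmp3 (stromelysin 1, which activates other pro-Mmps) was at 0.823, 0.803, 0.927 and 0.316 CPM in Cre(-) and at 1.90, 2.91 and 5.88 CPM in KI (log2 fold change 2.30 ± 0.38, adjusted p = 7.97e-05). Neither gene overlapped between the groups. Mmp19 rose by 1.72 ± 0.31, Mmp12 (macrophage elastase) by 1.15 ± 0.39 and Mmp11 (stromelysin 3) by 0.83 ± 0.18 on the log2 scale. The Mmp12 call (adjusted p = 0.0179) was lost without Cre(-) replicate 2 (0.051), without KI replicate 2 (0.0949) and with only the Cre(-) mice without a flox allele (0.103).

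Mmp27 and Mmp8 (neutrophil collagenase) were called higher from few counts. Mmp27 was at 0.069, 0.054, 0 and 0.063 CPM in Cre(-) and 0.632, 0.754 and 0.913 CPM in KI. Mmp8 was at 0.137, 0.054, 0.066 and 0.063 CPM and at 0.747, 0.269 and 0.456 CPM. Neither gene overlapped between the groups. For Mmp27 the Cre(-) libraries held 0 or 1 count and the KI libraries 11 to 16, and for Mmp8 they held 1 or 2 counts and 5 to 13. Mmp27 had 3 counts over the 4 Cre(-) libraries and 41 over the 3 KI libraries, a ratio of 16.4 (95% exact counting interval 5.23 to 82.8). Mmp8 had 5 and 26 counts, a ratio of 6.24 (2.36 to 20.8). Intervals of this kind cover counting error only. Of 6 neutrophil markers, 2 passed the filter and neither was called, and the summed TPM of the 6 was 0.42 to 3.02 in Cre(-) and 3.04 to 6.55 in KI. The part of neutrophils in the Mmp8 result was not tested.

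A smaller set of secreted enzymes fell. Mmp13 (collagenase 3) was at 1.44, 3.10, 2.85 and 3.09 CPM in Cre(-) and at 1.26, 0.431 and 0.285 CPM in KI, a log2 fold change of -1.99 ± 0.45 (adjusted p = 0.00135). It is the gene next to Mmp12 at the end of the chromosome 9 cluster. The other 5 cluster genes that passed the filter were all called higher (31.6% of all genes tested were). Of these 5, Mmp7, Mmp27 and Mmp8 had 6, 3 and 5 counts over the Cre(-) libraries and passed the filter only through libraries with Cre. A call of lower was hardly open to them, so the count shows nothing particular to the cluster. Mmp28 (epilysin) fell by 0.57 on the log2 scale, with overlapping groups (adjusted p = 0.0465). That call was lost without Cre(-) replicate 1 (0.0825), 2 (0.107) or 3 (0.0692) and without KI replicate 1 (0.103) or 3 (0.195), and also with only the Cre(-) mice that had HIF1af/f (0.0534) or no flox allele (0.236). In all, the Mmp28 call was lost in 12 of 16 alternatives, among them limma on log2(TPM + 1) (log2 difference -0.09, adjusted p = 0.643). The median of all genes on that scale was 0.38. Mmp9 (gelatinase B) had a log2 fold change of 0.26 ± 0.40 (adjusted p = 0.597) and a level of 0.428 to 1.10 CPM in Cre(-) and 0.46 to 1.19 CPM in KI.

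**Figure D2:**
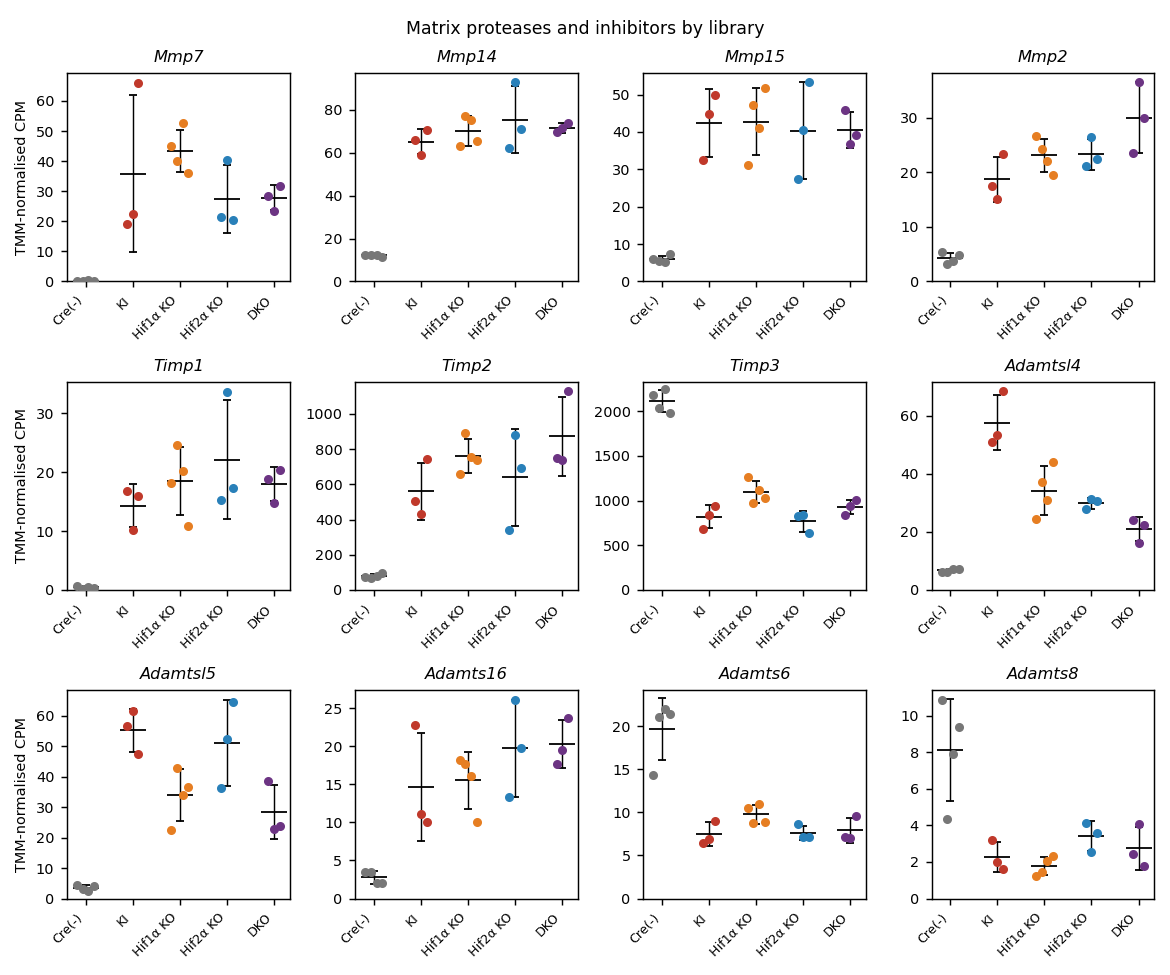
TMM-normalised CPM (y axis, linear, from 0) of 12 genes in each of the 17 libraries, by group, with 1 point per library and the group mean and SD in black. Mmp7, Mmp14, Mmp15, Mmp2, Timp1, Timp2, Adamtsl4, Adamtsl5 and Adamts16 lie above every Cre(-) library in all Cre-positive groups, and Timp3, Adamts6 and Adamts8 lie below.

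Among the membrane-type enzymes, Mmp14 (MT1-MMP) is a collagenase of the cell surface and the activator of pro-Mmp2. Mmp14 was at 12.4, 12.3, 12.2 and 11.5 CPM in Cre(-) and at 66.1, 58.9 and 70.5 CPM in KI. These are narrow groups that do not overlap (log2 fold change 2.43 ± 0.12, adjusted p = 5.08e-10). Mmp15 (MT2-MMP) was at 6.03, 5.57, 5.10 and 7.26 CPM in Cre(-) and at 32.4, 44.8 and 49.98 CPM in KI, a log2 fold change of 2.82 ± 0.23 (adjusted p = 7.22e-08). Per length, Mmp14 was at a mean of 6.24 TPM in Cre(-) and 42.3 TPM in KI, and Mmp15 at 1.34 and 12.8 TPM.

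Mmp24 (MT5-MMP) had a single count over the 4 Cre(-) libraries and 34 over the KI libraries, a ratio of 40.8 (95% exact counting interval 6.85 to 1659). Its KI level was 0.402, 0.592 and 0.913 CPM, so it stayed a minor transcript. Mmp16 (MT3-MMP) fell, with 0.548, 0.161, 1.06 and 0.884 CPM in Cre(-) and 0.057, 0 and 0.285 CPM in KI. The Mmp16 groups overlapped, and its call (log2 fold change -2.47 ± 0.79, adjusted p = 0.0129) was lost without KI replicate 1 (0.0522) or 2 (0.0522). With limma it was also lost on log2(TPM + 1) (log2 difference -0.21, adjusted p = 0.167) and on log2(TPM + 0.1) (-1.01, 0.1). The medians of all genes on these scales were 0.38 and 0.48. The GPI-anchored Mmp17 (-0.34 ± 0.27, adjusted p = 0.306) and Mmp25 (-0.31 ± 0.46, adjusted p = 0.581) and the membrane-anchored Mmp23 (0.02 ± 0.17, adjusted p = 0.921) were not called. Summed over all Mmp genes, the level per length was 27.3 to 31.0 TPM in Cre(-) and 136 to 206 TPM in KI.

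Among the inhibitors, Timp3 was lower in KI, and Timp2 and Timp1 were higher. Timp3 was at 2182, 2030, 2247 and 1980 CPM in Cre(-) and at 678, 840 and 940 CPM in KI, a log2 fold change of -1.36 ± 0.13 (adjusted p = 4.36e-07). Timp2, which inhibits Mmp2 and also takes part in its activation by Mmp14, went from 74.1, 68.4, 81.0 and 94.3 CPM to 503, 431 and 743 CPM (2.81 ± 0.27, adjusted p = 3.58e-07). Timp1, a secreted inhibitor induced in injured kidney, went from 0.754, 0.161, 0.53 and 0.316 CPM to 16.8, 10.2 and 16.0 CPM (5.06 ± 0.43, adjusted p = 1.16e-07). No library of either group overlapped the other for any of these genes.

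Per length, Timp3 held 94.1% to 95.8% of the summed Timp TPM in Cre(-) and 46.4% to 56.2% in KI. Timp2 held 4.1% to 5.7% and 39.1% to 48.7%. The summed Timp TPM was 478 to 565 in Cre(-) and 480 to 621 in KI, so the ranges overlapped. It was 698 to 745 in Hif1α KO and 672 to 928 in DKO, above every Cre(-) library, and 443 to 753 in Hif2α KO. In CPM, which were TMM-scaled between libraries and not divided by length, the Timp sum was 2075 to 2329 in Cre(-) and 1199 to 1701 in KI, with no overlap. On that scale Hif1α KO (1780 to 1939) and Hif2α KO (1190 to 1751) also lay below every Cre(-) library, and DKO (1610 to 2153) overlapped Cre(-). The direction of the Timp sum in the deletion groups therefore depends on the scale. TPM and CPM differ in the scaling between libraries as well as in length. In DKO against Cre(-), the median log2 difference of all genes was 0.455 on log2(TPM + 1) and 0.021 in counts. The higher Timp TPM is therefore not read as a result about the inhibitors. Timp4 was low, at 0.617, 0.321, 0.662 and 0.442 CPM in Cre(-) and 0.402, 3.93 and 0.856 CPM in KI. Its high library is the one rich in adipocyte RNA, and its log2 fold change of 1.77 ± 0.81 was not called (adjusted p = 0.0707), although it was without KI replicate 1 (0.0277). With a library left out, the Timp4 log2 fold change ranged from 0.31 to 2.23 and its adjusted p from 0.0277 to 0.772. Timp3 and Timp4 lie in introns of Syn3 and Syn2, with exons that overlap on the opposite strand. Whether the counting used strand is not stated, so reads of such pairs may not be separated.

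The single deletion groups also lay above every Cre(-) library for Timp1 and Timp2 and below every one for Timp3. Hif1α KO libraries had Timp3 at 1261, 973, 1123 and 1028 CPM, Timp2 at 660, 888, 756 and 740 CPM and Timp1 at 18.2, 24.6, 20.2 and 10.8 CPM. Hif2α KO libraries had Timp3 at 832, 836 and 633 CPM, Timp2 at 343, 882 and 694 CPM and Timp1 at 15.2, 33.7 and 17.4 CPM. Timp2 in Hif2α KO spread the most, and no Timp was called against KI in any deletion group.

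**Figure D3:**
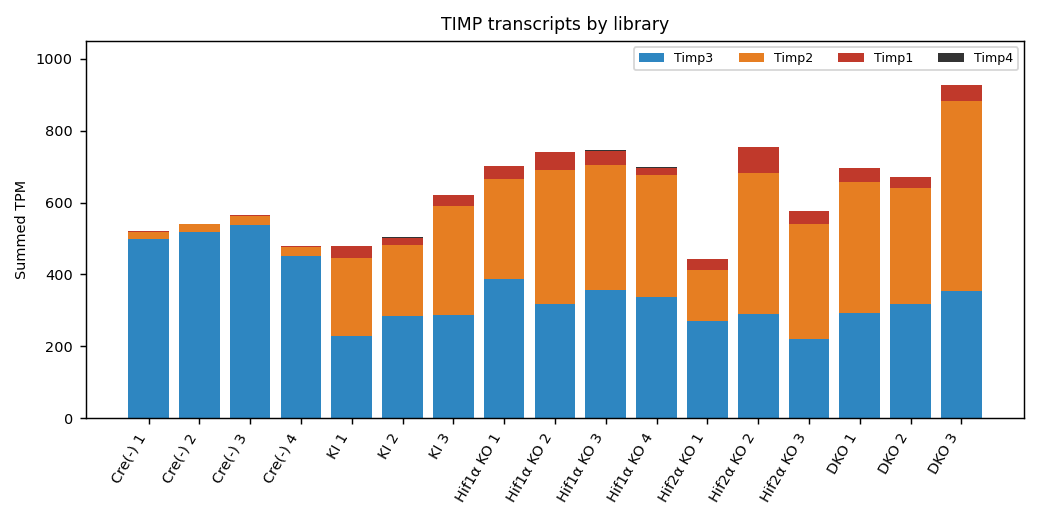
Summed TPM of the 4 Timp genes (y axis, linear, from 0) in each of the 17 libraries, stacked by gene. Timp3 fills over 94% of each Cre(-) bar and 38.2% to 61.1% of each bar with Cre, with Timp2 making up most of the rest.

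Of the 16 Adamts genes that passed the filter, 6 were higher in KI (37.5%, against 31.6% of all genes), 4 were lower (25%, against 29.3%) and 6 were not called. Adamts16 rose most, from 3.43, 3.53, 1.99 and 2.08 CPM in Cre(-) to 22.8, 11.1 and 10.0 CPM in KI (log2 fold change 2.40 ± 0.33, adjusted p = 1.34e-05). The procollagen N-propeptidase Adamts2 was at 7.95, 5.89, 6.09 and 8.59 CPM in Cre(-) and 23.2, 26.5 and 27.8 CPM in KI (1.86 ± 0.15, adjusted p = 5.62e-08). Neither gene overlapped between the groups. Adamts15 rose by 1.73 ± 0.25, Adamts12 by 1.43 ± 0.24, the proteoglycanase Adamts1 by 1.41 ± 0.14 and Adamts10, which binds fibrillin, by 0.68 ± 0.14. Per length, Adamts1 had the highest Adamts level in KI, at 48.0 TPM against 12.9 TPM in Cre(-).

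Adamts6, Adamts8, Adamts14 and Adamts9 were lower. Adamts14, a second procollagen N-propeptidase, had a log2 fold change of -1.90 ± 0.36, opposite in sign to Adamts2. Adamts8 was at 10.8, 4.34, 7.88 and 9.41 CPM in Cre(-) and 3.22, 1.99 and 1.60 CPM in KI (-1.83 ± 0.37, adjusted p = 0.000482), while its neighbour Adamts15, 20109 bases away on chromosome 9, rose. Adamts6 fell by 1.40 and Adamts9 by 0.48 on the log2 scale. With limma on log2(TPM + 1), where the median of all genes was 0.38, Adamts9 had a log2 difference of -0.04 (adjusted p = 0.758). Its call was also lost with only the Cre(-) mice that had HIF1af/f (0.063). The aggrecanases Adamts4 (0.29 ± 0.27) and Adamts5 (0.17 ± 0.13) and also Adamts3, Adamts7, Adamts17 and Adamts18 were not called, with adjusted p from 0.259 to 0.73.

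Of the 5 Adamtsl genes, 4 were higher in KI (80%, against 31.6% of all genes) and 1 was lower (20%, against 29.3%). Adamtsl5 was at 4.53, 3.16, 2.58 and 4.04 CPM in Cre(-) and at 56.6, 61.6 and 47.5 CPM in KI, a log2 fold change of 3.95 ± 0.28 (adjusted p = 1.60e-08). Adamtsl4, which binds fibrillin 1, was at 6.10, 6.21, 7.15 and 7.39 CPM and at 50.9, 53.4 and 68.5 CPM (3.10 ± 0.19, adjusted p = 4.23e-09). The groups were far apart for both genes. Adamtsl3 rose by 1.59 ± 0.33 and Adamtsl1 by 0.85 ± 0.16. Adamtsl2 fell by 0.79 on the log2 scale in counts. With limma on log2(TPM + 1), where the median of all genes was 0.38, its log2 difference was 0.06 (adjusted p = 0.827). Its transcript ENSMUST00000139633 held 0.0% to 14.2% of the gene's counts in Cre(-) and 16.0% to 28.7% in KI.

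In the DKO kidneys, which carry HIF1af/f and HIF2af/f with KSP-Cre, 28 of the 43 genes were higher than in Cre(-) (30.4% of all genes were) and 4 were lower (27.9% of all genes). The median log2 fold change was 0.98, beside 0.02 over all genes. On log2(TPM + 1), 28 were higher (65.1%, against 58.8% of all genes) and 4 lower (9.3%, against 10.8%). This comparison uses the same Cre(-) libraries as the KI comparison. Mmp7 was at 28.3, 23.5 and 31.8 CPM in DKO, Mmp14 at 69.5, 71.3 and 73.9 CPM, Timp1 at 18.9, 14.9 and 20.5 CPM and Timp2 at 749, 739 and 1129 CPM. Their log2 fold changes against Cre(-) were 8.12 ± 0.69, 2.56 ± 0.12, 5.39 ± 0.43 and 3.46 ± 0.28, beside 8.48, 2.43, 5.06 and 2.81 for KI. Timp3 was again lower (-1.18 ± 0.13), with 842, 942 and 1002 CPM, as were Adamts6 (-1.31 ± 0.17), Adamts8 (-1.56 ± 0.36) and Adamts14 (-1.66 ± 0.35).

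Some members were called against Cre(-) in DKO and not in KI. These were Mmp23 (log2 fold change 0.78 ± 0.17), Mmp25 (1.40 ± 0.41), Adamts7 (0.89 ± 0.23), Adamts4 (0.81 ± 0.27) and Adamts17 (1.24 ± 0.48), all higher than in Cre(-). In the direct test of DKO against KI, Mmp23 and Mmp25 were called, while Adamts7 (adjusted p = 0.137), Adamts4 (0.241) and Adamts17 (0.481) were not. Mmp13, Mmp16, Mmp28, Adamts9 and Adamtsl2 were called lower in KI and not in DKO, and none of them was called in DKO against KI (adjusted p from 0.0609 to 0.755). Adamts2 reached 30.2, 37.9 and 36.2 CPM and Adamts16 17.7, 19.5 and 23.7 CPM. The adjusted p of Adamts4 rose to 0.0669 without DKO replicate 2, 0.0811 without DKO replicate 3 and 0.121 with only the Cre(-) mice without a flox allele. Adamts17 lost its call without Cre(-) replicate 1 (0.0884), 2 (0.0787) or 3 (0.0574) and without DKO replicate 1 (0.058) or 2 (0.141) and with only the Cre(-) mice without a flox allele (0.26). The Mmp25 call was lost with only the Cre(-) mice that had HIF1af/f (0.0892). The Mmp8 call (log2 fold change 1.76 ± 0.62) was lost without Cre(-) replicate 2 (0.0587) and without DKO replicate 1 (0.141) or 3 (0.051), and with only the Cre(-) mice that had HIF1af/f (0.115) or no flox allele (0.0602). The Adamts15 call (0.83 ± 0.25) was lost without DKO replicate 1 (0.105) and with only the Cre(-) mice without a flox allele (0.0748).

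The groups with floxed HIF genes were next set against KI. No member was higher in Hif1α KO (2.57% of all genes were) and 1 was lower (2.86% of all). No member was higher in Hif2α KO (0.741% of all) and 1 was lower (0.647% of all). At an unadjusted p under 0.05 there were 12 members in Hif1α KO and 11 in Hif2α KO. The share of all genes at that level was not counted, so no result is drawn from these numbers. DESeq2 called 3 members higher in each, beside 4.79% and 3.32% of all genes. In DKO, 3 were higher (6.53% of all genes) and 4 were lower (6.19% of all). In the DKO comparison the shares of members called were 7.0% and 9.3%. With 0 to 4 genes behind each share, these counts show nothing particular to the members. The 3 comparisons share the KI libraries. Of 5 proximal tubule markers, 4 were higher in Hif1α KO than in KI (median log2 fold change 1.54), 0 in Hif2α KO (1.06) and 4 in DKO (1.58), and their summed TPM was 254 to 713, 208 to 627 and 384 to 661. Of 4 markers of the thick ascending limb and distal tubule, 2, 1 and 3 were higher. Their part in the member results was not tested.

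The gene lower in all of them was Adamtsl4. It was at 50.9, 53.4 and 68.5 CPM in KI and at 24.4, 37.0, 30.8 and 44.1 CPM in Hif1α KO (log2 fold change -0.75 ± 0.17, adjusted p = 0.0227). In Hif2α KO it was at 27.8, 31.4 and 30.5 CPM (-0.95 ± 0.19, adjusted p = 0.0265) and in DKO at 24.2, 16.2 and 22.5 CPM (-1.46 ± 0.19, adjusted p = 0.00128). Every library of these groups lay below every KI library, and above every Cre(-) library. Gpnmb also lay below every KI library in all 3 groups, and its part in this result, and in that of Adamtsl5 in DKO, was not tested. The DKO call held under each alternative run. The Hif1α KO call was lost without KI replicate 3 (adjusted p = 0.0871) or Hif1α KO replicate 1 (0.0581) or 3 (0.0726). The Hif2α KO call was lost without KI replicate 2 (0.0517) or 3 (0.145) or Hif2α KO replicate 1 (0.0714), 2 (0.0746) or 3 (0.0663).

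**Figure D4:**
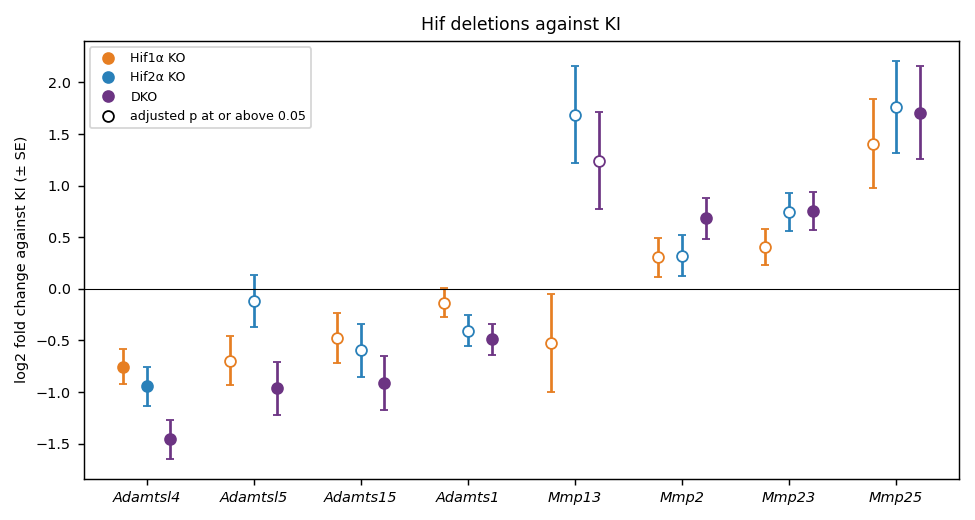
Log2 fold change against KI (y axis, with standard error) of the 8 genes called in any comparison among the groups with Cre, for Hif1α KO, Hif2α KO and DKO. Filled points have an adjusted p under 0.05, and Adamtsl4 is filled in all 3 comparisons, at -0.75, -0.95 and -1.46.

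In DKO against KI, Adamtsl5 was lower, at 38.5, 22.7 and 23.8 CPM against 56.6, 61.6 and 47.5 CPM (log2 fold change -0.96 ± 0.26, adjusted p = 0.0254). Adamts15 was at 38.8, 19.0 and 24.2 CPM against 36.0, 54.2 and 63.8 CPM (-0.91 ± 0.26, adjusted p = 0.0341), with overlap. Adamts1 was at 103, 106 and 103 CPM against 165, 130 and 143 CPM (-0.49 ± 0.15, adjusted p = 0.0446). Each of these 3 genes also stayed above Cre(-) in DKO. The Adamtsl5 call was lost without KI replicate 2 (0.0704), DKO replicate 2 (0.115) or 3 (0.104). The Adamts15 call was lost without KI replicate 2 (0.0791) or 3 (0.141) or DKO replicate 2 (0.149) or 3 (0.121). The Adamts1 call was lost without KI replicate 1 (0.126) or 3 (0.1) or DKO replicate 1 (0.0897), 2 (0.115) or 3 (0.121).

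Mmp2, Mmp23 and Mmp25 were higher in DKO than in KI. Mmp2 was at 23.5, 36.5 and 30.0 CPM against 17.6, 15.2 and 23.3 CPM (log2 fold change 0.68 ± 0.20, adjusted p = 0.0362). Mmp23 was at 8.91, 8.59 and 8.25 CPM against 4.77, 4.85 and 5.59 CPM (0.76 ± 0.18, adjusted p = 0.0166). Mmp25 was at 1.66, 1.11 and 1.32 CPM against 0.747, 0.323 and 0.171 CPM (1.71 ± 0.45, adjusted p = 0.0243). No DKO library overlapped KI for these genes. The Mmp2 call was lost without KI replicate 1 (0.0809) or 2 (0.118) or DKO replicate 2 (0.169) or 3 (0.0944), and the Mmp23 call without DKO replicate 2 (0.0566). The Mmp25 call was lost without KI replicate 2 (0.0761) or 3 (0.0959) or DKO replicate 1 (0.0603), 2 (0.052) or 3 (0.0631). Of 7 fibroblast and myofibroblast markers, 3 (Pdgfrb, Col1a1 and Col3a1) were higher in DKO than in KI, 0 were lower and 4 (Pdgfra, Dcn, Acta2 and Postn) were not called. Their median log2 fold change was -0.02, and their summed TPM was 307 to 362 in KI and 352 to 514 in DKO. The part of fibroblasts in these results was not tested.

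The direct comparison of Hif1α KO with Hif2α KO called no member higher (0.329% of all genes) and 1 lower, Mmp13 (0.0999% of all). For this comparison 7 members had an unadjusted p under 0.05, a level at which all genes were not counted. DESeq2 called 1 higher (2.17% of all genes). Mmp13 was at 0.358, 0.519, 0.249 and 0.664 CPM in Hif1α KO and at 1.94, 2.63 and 1.82 CPM in Hif2α KO (log2 difference -2.21 ± 0.44, adjusted p = 0.0403). The groups did not overlap. The call was lost without Hif1α KO replicate 1 (0.111), 2 (0.0632), 3 (0.108) or 4 (0.0881) and without Hif2α KO replicate 2 (0.173) or 3 (0.109), and with the replicate number as a block (0.1). Set against KI, the change in Mmp13 was -0.53 ± 0.48 (log2) for Hif1α KO and 1.69 ± 0.47 for Hif2α KO, neither of them called.

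Other genes that regulate matrix breakdown were counted from lists that were chosen with earlier results of these data known. Of all genes, 31.6% were higher and 29.3% lower in KI, and on log2(TPM + 1) 52.0% and 14.4%. The lists were counted on the first scale only. Given that choice and the scaling, a list share above that of all genes shows nothing particular to the list. Of 14 tested regulators outside the families, 5 were higher and 6 lower in KI. Cd44, which docks Mmp enzymes at the cell surface, rose by 4.08 ± 0.25 and Thbs2, which clears Mmp2 together with Lrp1, by 2.46 ± 0.25. The membrane inhibitor Reck fell by 0.71 on the log2 scale. In the plasminogen system 5 of 9 were higher and 3 lower. The tissue activator Plat fell by 1.38 on the log2 scale, and Plau was not called (-0.13 ± 0.16, adjusted p = 0.525).

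Of 13 cathepsins and cystatins, 11 were higher and 1 lower in KI (median log2 fold change 1.5), with Ctsl, a lysosomal cysteine protease, at 4.18 ± 0.25. Among 14 ADAM and other membrane metalloproteases, 6 were higher and 6 lower. Adam33 rose by 6.86 ± 0.53, while the brush border enzymes Mep1b (-5.75 ± 0.71) and Mme (-2.91 ± 0.27) fell. Of 22 matrix substrates, 16 were higher and 2 lower (median 1.19), among them Ltbp2 (6.10 ± 0.30), Tnc (4.10 ± 0.25) and Col1a1 (2.21 ± 0.20).

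Markers of other cells moved in the same comparison. Of 7 macrophage markers 6 were higher in KI, with a summed TPM of 126 to 161 in Cre(-) and 2260 to 2544 in KI, and of 7 fibroblast markers 6 were higher, with 89.2 to 118 and 307 to 362 TPM. Cd68 carried most of the macrophage sum, while Csf1r was at 89.2 to 101 CPM in Cre(-) and 82.8 to 84.6 CPM in KI. None of 5 endothelial markers was higher and 3 were lower. Podocyte markers were lower for 3 of 4. The part of these cells in the changes of the protease genes was not tested.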

How the data were processed

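Kidney polyA RNA of 17 libraries was sequenced from TruSeq stranded libraries. The submitters' processing notes name Trim Galore 0.6.6, cutadapt 2.5 and STAR 2.7.9a with builds hg38 and GRCm38. The rows are mouse transcripts. The authors deposited expected counts per transcript, not normalized between libraries, and the authors deposited TPM, normalized for length and library total. Both were summed per gene through GENCODE M21 (116770 of 119353 transcripts matched), and counts were rounded. Totals were 16504419 to 24668827 counts.

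The main test was edgeR 4.0.16 (R 4.3.3), a quasi-likelihood fit of all libraries with TMM factors, filterByExpr with a minimum count of 10, and Benjamini-Hochberg adjustment over 17011 genes at 0.05. In all, 6 contrasts were tested. Errors of fold changes are SE. On data simulated for KI against Cre(-), 96% of 4-fold and 63% of 2-fold changes were found among 17011 genes, and 4.22% of calls were false. In that simulation only 200 genes were changed, evenly up and down. The real contrast called 5381 genes higher and 4981 lower, so these rates check the fit and do not describe the real contrast. Alternatives used DESeq2 1.42.0, DESeq2 size factors, no filter, only the groups compared, a replicate block, limma 3.58.1 on log2(TPM + 1) and log2(TPM + 0.1), other control mice, and each library left out. Every Mmp and Timp that passed the filter is named, with each Adamts and Adamtsl called or at a group mean of 1 TPM. The members and lists were chosen with earlier results of these data known. Figures used Python 3.11.15 and matplotlib 3.10.9.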

Additional observations from a re-analysis of the deposited data

Results flagged for a closer look

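Among 86 groups of 4 libraries tested, 9 had a library far from the others, and chance alone flags about 1 in 20. In Cre(-) replicate 3, Mmp7 was at 0.331 CPM against 0 to 0.054 CPM in the others, Mmp24 at 0.066 CPM against 0 and Adamts4 at 3.51 CPM against 2.26 to 2.36 CPM. In Cre(-) replicate 1, Adamts6 was low at 14.3 CPM (others 21.1 to 21.98), Mmp13 was low at 1.44 CPM (2.85 to 3.10) and Mmp8 was high at 0.137 CPM (0.054 to 0.066). In Hif1α KO, Adamts17 was high in replicate 4 at 0.507 CPM (0.349 to 0.363), Mmp16 was high in replicate 2 at 0.415 CPM (0.117 to 0.149) and Mmp27 was low in replicate 1 at 0.239 CPM (0.349 to 0.363). Most of these rest on a few counts.

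Mmp13 differed between the 2 single deletions, by -2.21 on the log2 scale for Hif1α KO against Hif2α KO in the test of that difference (edgeR adjusted p = 0.0403). The call was lost in 9 of 14 alternatives, among them 6 of 7 with a library left out and the replicate block (adjusted p = 0.1).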

How the results depend on the processing

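Over 79 named results and 1225 alternative values, 1104 kept direction and side of the threshold, 106 lost the call, 1 gained it and 14 changed sign. In KI against Cre(-), higher members ranged from 22 to 24 and lower ones from 7 to 10 with a library left out, and lower members were 5 by limma on either TPM scale (main 9). In DKO against Cre(-) the ranges were 25 to 28 and 4 to 5. The median of all genes in these 2 contrasts was 0.378 to 0.563 on TPM, against 0.03 and 0.021 in counts. Adamtsl2 in KI changed sign on TPM (0.0591 and 0.0614). Genes not called in KI also changed sign: Mmp17 on TPM (0.0487 and 0.114) and with HIF1af/f controls only (0.0123), Mmp23 with a replicate block (-0.063), with HIF1af/f controls only (-0.159) and with a library left out (-0.0837 to 0.0962), and Mmp25 on TPM (0.0273 and 0.0608), with a library left out (-1.02 to 0.0563) and with controls without a flox allele (0.348).

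Counts among the groups with Cre were unstable. With a library left out, higher and lower members ranged from 0 to 1 and 0 to 2 in Hif1α KO, from 0 to 2 and 0 to 1 in Hif2α KO, from 0 to 3 and 1 to 3 in DKO, and stayed 0 (higher) and 0 to 1 (lower) in Hif1α KO against Hif2α KO. DESeq2 called 3 higher in Hif1α KO (4.79% of all genes), 3 in Hif2α KO (3.32%) and 5 in DKO (8.68%). It called 1 higher in Hif1α KO against Hif2α KO (2.17%). limma on log2(TPM + 1) and log2(TPM + 0.1) called 2 and 1 higher in Hif2α KO (0.805% and 0.347% of all genes). It called 1 and 1 lower in DKO (3.06% and 2.72%). In the other 3 contrasts it called 0 lower, where 0.0647% to 2.23% of all genes were. With only the 2 groups fitted, 0 were lower in Hif1α KO (0.833% of all genes), 0 in Hif2α KO (0.00625%) and 2 in DKO (3.12%). With a replicate block, 1 was lower in DKO (4.69% of all genes) and 0 in Hif1α KO against Hif2α KO (0.0235%). Same-numbered libraries did not consistently deviate together (31 pairs, r from -0.223 to 0.249, 4 above 0.1). With so few libraries per group, this cannot exclude that some same-numbered libraries were handled together. The cause of these differences was not tested. At 3 counts per library, Mmp24, Mmp27, Mmp8 and Mmp16 are near the limit of depth.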
